A study of Mus musculus with 168 samples.

Results

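CD4 T cells of the spleen were compared between 2 groups: 5 arrays from mice taken 4 h after the last of 3 treatments with a Janus kinase (JAK) inhibitor, and 7 arrays from mice given plain vehicle. The arrays were chosen by their labels alone, as every CD4 T cell array with 3 treatments and a harvest 4 h after the last. They are 5 of the 39 CD4 T cell arrays of a series that also covers other spleen and peritoneal cells. Of the 5, 2 came from SB00526221, 2 from SB00526222 and 1 from SB00526226, all in the experiment whose titles begin with J2. The 7 vehicle arrays (Veh 0.5% MC) came from mice given 14 or 15 treatments and taken 14, 15, 17 or 18 h after the last: 1 in J2, 1 in J3, 1 in J6, 2 in J8 and 2 in J25. All mice were C57BL/6 males aged 6 weeks, dosed by gavage, and all CD4 T cell arrays carry the phenotype marker CD4+. The inhibitors are known here by code only, and the labels give no dose. RNA came from cells sorted out of a disrupted spleen and was measured on an Affymetrix Mouse Gene 1.0 ST array.

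Janus kinases sit on the inner ends of cytokine receptors and, once a cytokine binds, phosphorylate STAT transcription factors. Type I interferons act through JAK1 and TYK2 on genes that carry an interferon-stimulated response element. Interleukins that signal through the common gamma chain, such as IL-2 and IL-7, act in CD4 T cells through JAK1, JAK3 and STAT5, which binds GAS sites and drives Cish, Socs2 and Bcl2. The question the comparison answers is which of these transcripts differed in CD4 T cells shortly after dosing.

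The clearest difference lay in probe sets assigned to the microRNA genes Mir142, Mir342 and Mir30e, of which only Mir142 was called with compounds pooled. Their mature products are printed first, from RefSeq (GRCm38.p6), with the seed (bases 2 to 8) in capitals. The array annotation assigns a probe set to the gene and not to either arm, so the level of the mature products is not known here. No 2 of the 6 seeds are the same. Mir142 lies on the plus strand, with its arms at chr11:87756867-87756887 and chr11:87756903-87756925. Mir342 lies on the plus strand, with its arms at chr12:108658638-108658659 and chr12:108658680-108658702. Mir30e lies on the minus strand, with its arms at chr4:120772660-120772681 and chr4:120772618-120772639.
mmu-miR-142a-5p: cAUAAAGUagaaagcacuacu
mmu-miR-142a-3p: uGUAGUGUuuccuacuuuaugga
mmu-miR-342-5p: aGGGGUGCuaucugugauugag
mmu-miR-342-3p: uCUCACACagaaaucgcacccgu
mmu-miR-30e-5p: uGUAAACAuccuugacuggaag
mmu-miR-30e-3p: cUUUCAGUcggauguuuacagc

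Promoters of 3 genes of the JAK pathway are printed as examples that hold a motif. The windows of Oasl2 and Irf7 held no response element match and that of Bcl2 no GAS match. Each is the RefSeq window of 250 bases before to 50 after the start site, 5′ to 3′ on the gene's strand, with motif matches in capitals. The response element was searched as GAAA, any 2 bases and GAAA, or as its reverse complement TTTC, any 2 bases and TTTC, and the GAS site as TTCNNNGAA, whose reverse complement is the same pattern. Overlapping matches were both kept. Rsad2 (chr12:26456403-26456702, minus strand) had 1 response element match and Ifit1 (chr19:34640639-34640938, plus strand) had 2. Cish (chr9:107296409-107296708, plus strand) had 2 GAS matches.
Rsad2: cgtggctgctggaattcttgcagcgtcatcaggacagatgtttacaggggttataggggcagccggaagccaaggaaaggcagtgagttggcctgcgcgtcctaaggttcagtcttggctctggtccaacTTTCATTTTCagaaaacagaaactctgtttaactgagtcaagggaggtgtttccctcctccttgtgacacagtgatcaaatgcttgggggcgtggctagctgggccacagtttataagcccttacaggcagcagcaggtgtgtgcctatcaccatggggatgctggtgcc
Ifit1: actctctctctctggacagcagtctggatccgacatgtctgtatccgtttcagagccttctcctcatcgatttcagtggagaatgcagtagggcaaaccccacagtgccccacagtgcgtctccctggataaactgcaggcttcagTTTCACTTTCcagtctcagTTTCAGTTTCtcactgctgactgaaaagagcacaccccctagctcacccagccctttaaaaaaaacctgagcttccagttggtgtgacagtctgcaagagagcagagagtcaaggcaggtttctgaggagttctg
Cish: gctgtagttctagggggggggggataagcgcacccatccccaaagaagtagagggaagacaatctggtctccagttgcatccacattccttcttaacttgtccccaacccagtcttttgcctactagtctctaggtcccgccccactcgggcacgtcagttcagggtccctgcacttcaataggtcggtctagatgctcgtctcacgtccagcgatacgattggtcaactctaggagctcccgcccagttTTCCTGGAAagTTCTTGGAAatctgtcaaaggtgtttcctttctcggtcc
Among the 30 interferon-stimulated genes tested here, 23 had a RefSeq window, and 12 of these (52.2%) held the response element, against 3.68% of the 8996 tested genes with a window. Among the STAT5 targets, 5 of 13 windows (38.5%) held the GAS letters, against 8.23% of the 8996. A match is only a run of letters, and binding was not measured.

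Array medians over the series ran from 119.5 to 142.3 on the linear intensity scale. The deposited values had been through RMA, so these medians do not show how even the signal was before it. The largest source of variation among the CD4 T cell arrays was the experiment: the first principal component carried 48.3% of the variance and separated J2 and J25 from J3, J6 and J8. Experiment was therefore a term of the fit, and values below are log2 intensity. A difference is the fitted one, in log2 units, with its standard error (SE). Within J2 the only plain vehicle array was a single one. The hour since the last treatment and the number of treatments differ between the 4 h arrays and every plain vehicle array, so they cannot be told apart from the inhibitor in this comparison. CD4 T cell identity was clear. The mean of 10 CD4 T cell markers was 11.55 to 11.70 in 4 h arrays and 11.30 to 11.71 in vehicle arrays. B cell markers averaged 6.09 to 6.27 in 4 h arrays, under the 6.32 to 6.75 of vehicle arrays. NK cell markers averaged 5.02 to 5.39 in 4 h arrays and 5.23 to 6.553 in vehicle arrays. The J2 vehicle array read 5.33 for them, and J2 arrays outside the 4 h groups, that of SB00526228 aside, overlapped at 5.14 to 5.56. The 2 CD8 T cell markers went the other way from the B cell markers, at 7.43 to 7.83 in 4 h arrays and 7.07 to 7.54 in vehicle arrays. The other J2 arrays, that of SB00526228 aside, averaged 7.53 to 7.87 for them. Of these markers Cd8b1 read 8.40 to 9.14 at 4 h, with all 5 values above every vehicle array (highest 8.38). Macrophage markers averaged 6.09 to 7.24 and 6.09 to 7.40, with the high 4 h value in SB00526221 replicate 2, against 10.30 in the spleen macrophages of the series. For these markers the other J2 arrays, that of SB00526228 aside, averaged 6.03 to 6.25. SB00526221 replicate 2, SB00526226 (6.61) and SB00526222 replicate 2 (6.32) lay above that range. In bulk samples, fewer cells of a type and less RNA per cell cannot be told apart. Each title carries a number after its experiment, which differs between all 12 arrays and was taken as the mouse. The labels do not say so, and if it is not the mouse the p-values reflect only technical spread.

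Mir142, the gene of a microRNA abundant in blood cells, was the only gene past the threshold between 4 h inhibitor and vehicle arrays (adjusted p under 0.05). Its probe set (10380135, chromosome 11) read 9.11 and 8.87 with SB00526221, 8.05 and 8.54 with SB00526222, and 8.41 with SB00526226. The vehicle arrays ran from 6.21 through a median of 8.47 to 9.26. The J2 vehicle array was the lowest of them at 6.21, and the 3 J2 arrays of prolonged inhibitor treatment read 6.35, 6.29 and 6.20. The J2 pH 3 vehicle array read 6.38, and the J2 array of prolonged SB00526228, which carried granulocyte transcripts, read 8.21. All 5 values at 4 h lay above these J2 arrays except that of SB00526228, which was above the lowest 4 h value. They lay inside the range of the vehicle arrays of other experiments, where the 2 J25 arrays read 9.22 and 9.26 and the 2 J8 arrays, of 1 experiment, read 8.728 and 6.44. The fitted difference was 2.33 (SE 0.34, 95% interval 1.64 to 3.02), or 5.02-fold, with an adjusted p of 0.00228 by limma. Of 11212 genes tested, 0.00892% were called higher and 0% lower. At an unadjusted p under 0.05, 123 genes (1.1%) were higher and 96 (0.856%) lower. This total of 219 was a share below the 0.05 that would pass on average with no difference. The Mir142 call was lost without the J2 vehicle array (2.295, adjusted p = 0.0675), with experiment as a random term (1.83, adjusted p = 0.356), with only the compared arrays (2.38, adjusted p = 1.00) and with no experiment term (0.71, adjusted p = 0.436).

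**Figure D1:**
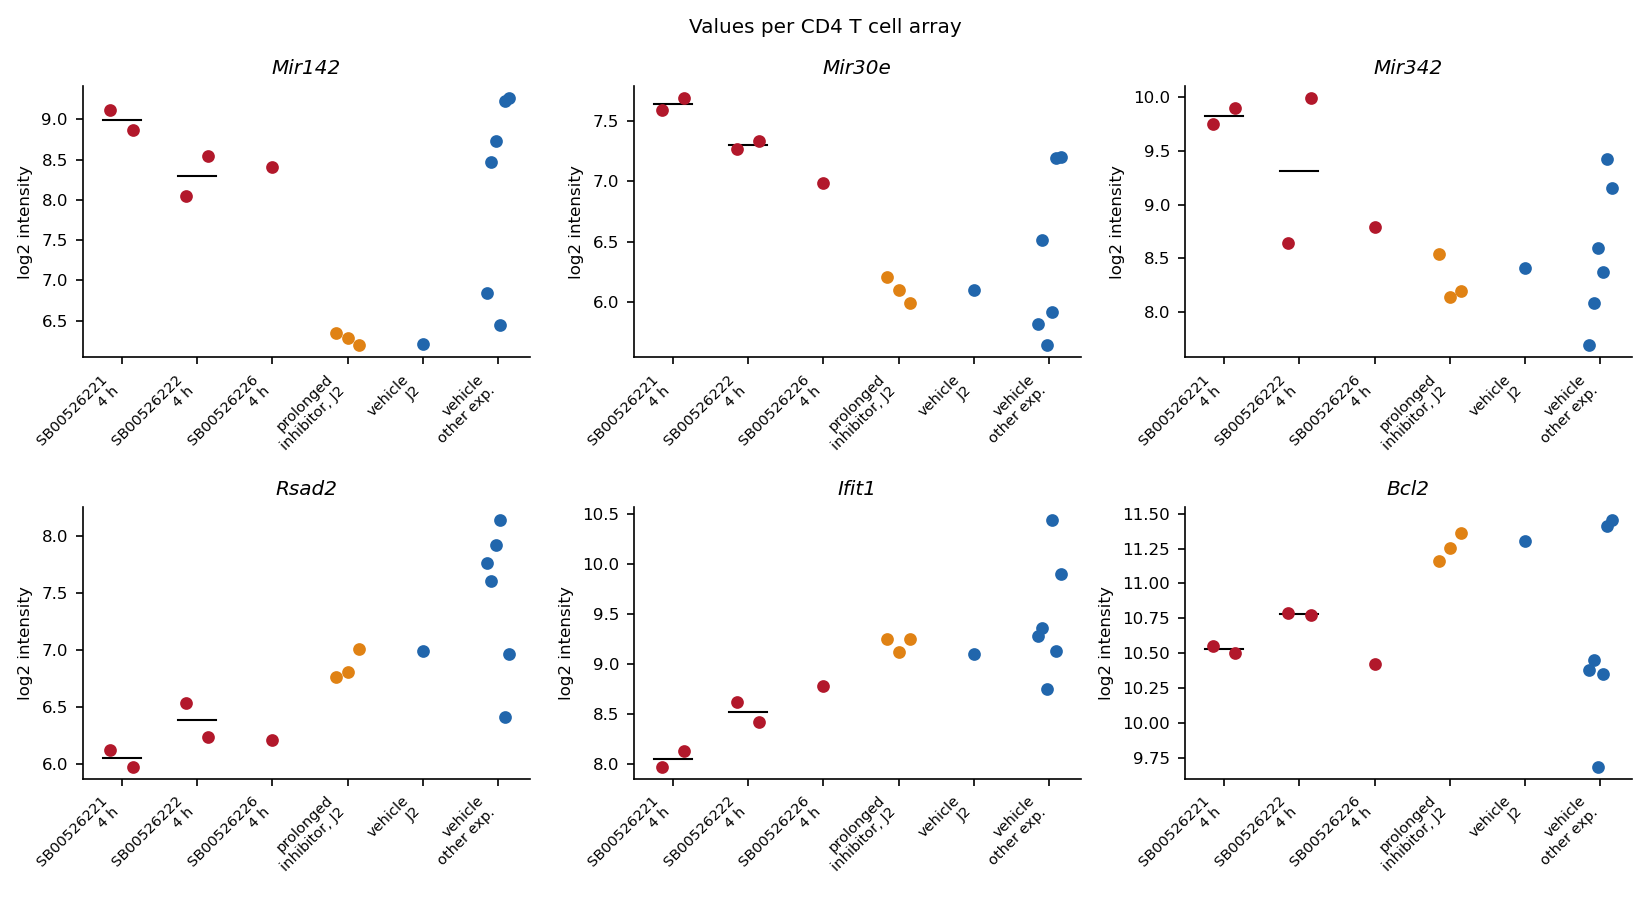
Log2 intensity of 6 genes in single CD4 T cell arrays, by compound at 4 h (red), prolonged inhibitor in J2 (orange) and plain vehicle in J2 and in other experiments (blue); bars are means of 2 arrays. Mir142 at 4 h lies between 8.05 and 9.11, above the J2 vehicle array at 6.21 and within the other vehicle arrays, which reach 9.26.

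Probe sets of 2 more microRNA genes lay next to it by p-value without being called. Mir30e read 7.59 and 7.69 with SB00526221, 7.27 and 7.33 with SB00526222, and 6.99 with SB00526226. Vehicle arrays ran from 5.64 through 6.10 to 7.20, with the J2 array at 6.10. The difference was 1.34 (SE 0.26, adjusted p = 0.125). Mir342 read 9.75 and 9.90 with SB00526221, 8.638 and 9.99 with SB00526222, and 8.79 with SB00526226. Vehicle arrays ran from 7.69 through 8.41 to 9.43, with J2 at 8.41. The difference was 1.16 (SE 0.23, adjusted p = 0.125). All 5 values of both genes lay above the J2 vehicle array, and 4 of 5 (Mir30e) and 3 of 5 (Mir342) above every vehicle array. Over 84 tested microRNA probe sets the median difference was -0.02, beside 0.01 over all genes. At an unadjusted p under 0.05, 6 of the 84 were higher, beside 1.1% of all genes, and 2 were lower, beside 0.856%. The mean of all 294 microRNA probe sets was 5.62 to 5.70 in 4 h arrays and 5.46 to 5.73 in vehicle arrays.

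**Figure D2:**
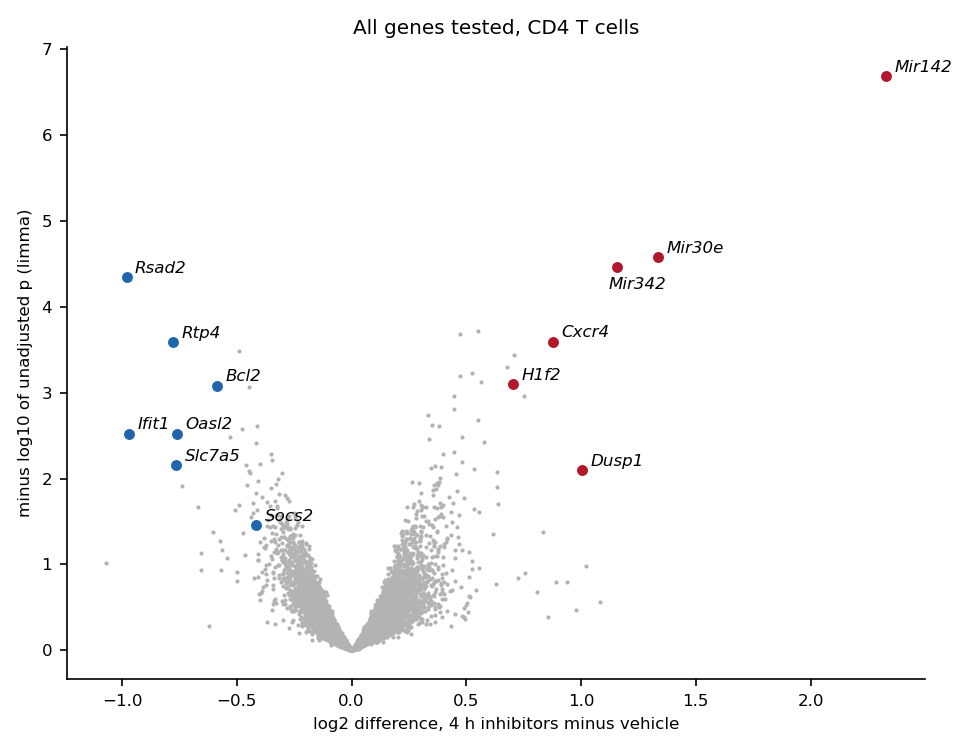
Fitted log2 difference between 4 h inhibitor and vehicle arrays (x axis) against minus log10 of the unadjusted limma p (y axis) for the 11212 genes tested, with named genes above (red) or below (blue) 0. Mir142, at 2.33, stands apart from the others, and Rsad2, at -0.98, is the interferon-stimulated gene with the lowest p.

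Interferon-stimulated genes had fitted differences below 0 throughout the list, but no single one passed the threshold. All 30 tested members lay below 0, beside 47.2% of all genes. Their median was -0.33, beside 0.01 over all genes, and 11 of 30 were lower at an unadjusted p under 0.05, beside the 0.856% given above. In 12 of 30 (40.0%) all 5 values at 4 h lay below the J2 vehicle array, beside 8.05% of all genes, and in 0 of 30 did all 5 lie below every vehicle array. The list's genes share regulators and are not independent of each other, and no test of the list was made.

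Rsad2, which encodes the antiviral enzyme viperin, read 6.12 and 5.98 with SB00526221, 6.533 and 6.23 with SB00526222, and 6.21 with SB00526226. Vehicle arrays ran from 6.41 through 7.60 to 8.14, with J2 at 6.99. All 5 values lay below the J2 vehicle array and 4 of 5 below every vehicle array. The difference was -0.98 (SE 0.20, 95% interval -1.39 to -0.57, adjusted p = 0.125). Ifit1, an RNA-binding antiviral protein, read 7.98 and 8.13 with SB00526221, 8.625 and 8.42 with SB00526222, and 8.78 with SB00526226. Vehicle arrays ran from 8.75 through 9.28 to 10.44, with J2 at 9.11. Only the SB00526226 value reached the vehicle range, and the difference was -0.97 (SE 0.30, unadjusted p = 0.00298). Rtp4, an interferon-induced chaperone of receptors, read 7.89 and 7.67 with SB00526221, 8.23 and 8.19 with SB00526222, and 8.723 with SB00526226. Vehicle arrays ran from 8.619, the J2 array, through 9.25 to 10.10. The SB00526226 array was the only one not below them, and the pooled difference was -0.78 (SE 0.18, adjusted p = 0.36). Oasl2, a relative of the oligoadenylate synthetases, differed by -0.76 (SE 0.23) and Irf7, which amplifies interferon transcription, by -0.44 (SE 0.16). The remaining members ran from -0.74 (Ifit3) to -0.00091 (Slfn8).

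**Figure D3:**
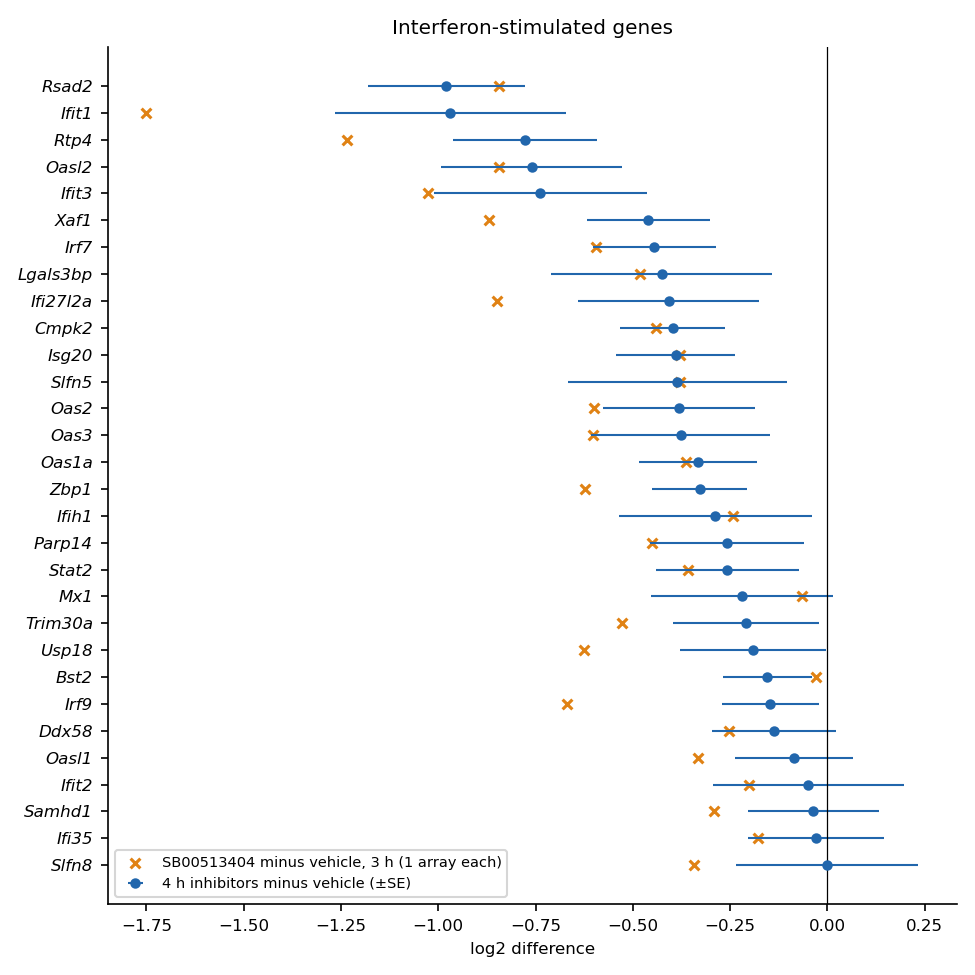
Log2 differences of the 30 tested interferon-stimulated genes, with 4 h inhibitors minus vehicle as points with SE, and SB00513404 minus vehicle 3 h after 1 treatment (1 array each, no error) as crosses. All points and all crosses lie at or below 0, with Rsad2 (-0.98) and Ifit1 (-0.97) at the far end of the points.

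By compound, the list's median difference from vehicle was -0.33 with SB00526221, -0.27 with SB00526222 and -0.15 with SB00526226. In the same order 28, 30 and 23 of the 30 genes lay below 0, beside 5137, 5658 and 5462 of all 11212 genes. These comparisons share the vehicle arrays. Genes of the interferon-gamma response, which runs through JAK1 and JAK2, had a median of -0.07, with 14 of 18 below 0, beside 47.2% of all genes, and none at an unadjusted p under 0.05. Irf8 differed by -0.29 (SE 0.18), the guanylate-binding protein gene Gbp5 by -0.27 (SE 0.18), and the immunity-related GTPase gene Iigp1 by -0.40 (SE 0.35).

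Over 18 tested STAT5 targets the median was -0.12, 12 lay below 0, beside 47.2% of all genes, and 3 (Bcl2, Socs2 and Bcl2l1) were lower at an unadjusted p under 0.05, beside 0.856%. Bcl2, the survival factor that IL-7 maintains in resting T cells, read 10.55 and 10.50 with SB00526221, 10.78 and 10.78 with SB00526222, and 10.42 with SB00526226. The J2 vehicle array read 11.31, its pH 3 vehicle array 11.17, and the J2 arrays of prolonged treatment 11.16, 11.25 and 11.36. Every 4 h value was thus below every one of those J2 arrays. Vehicle arrays of J3, J6 and J8 were low too, so that the whole vehicle group ran from 9.69 through 10.45 to 11.46. The difference was -0.58 (SE 0.16, 95% interval -0.90 to -0.27), with an adjusted p of 0.563. It passed the threshold in 2 other settings, with J2 and J25 as the only experiments, a choice made after seeing the data (-0.75, adjusted p = 0.00903) and with array weights (-0.68, adjusted p = 0.000418).

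Socs2, a feedback inhibitor of cytokine receptors, read 6.74 and 6.71 with SB00526221, 7.41 and 6.91 with SB00526222, and 6.584 with SB00526226, while vehicle arrays ran from 7.19 through 9.14 to 9.69, with J2 at 7.40. The difference was -0.42 (SE 0.19, unadjusted p = 0.0349). Bcl2l1, the gene of the survival factor BCL-XL, differed by -0.28 (SE 0.13, unadjusted p = 0.0367). Cish, a STAT5-induced inhibitor, read 7.50, 7.20, 7.76, 7.97 and 7.54 in the 4 h arrays, against 7.94 in the J2 vehicle array. Its difference was -0.34 (SE 0.22, unadjusted p = 0.127). The feedback inhibitors Socs1 (0.03, SE 0.21) and Socs3 (-0.20, SE 0.23), the kinase gene Pim1 (-0.16, SE 0.31) and the growth regulator Myc (-0.08, SE 0.16) had differences smaller than their standard errors. The same was true of the kinase genes Jak1 (0.07, SE 0.16), Jak2 (0.15, SE 0.22) and Tyk2 (0.20, SE 0.23). Each of these 7 differences turned sign under at least 1 alternative. Il7r, the IL-7 receptor chain, differed by 0.39 (SE 0.17), Ifngr2, a chain of the interferon-gamma receptor, by 0.26 (SE 0.12), Il15ra by -0.31 (SE 0.14) and Il12rb2 by -0.41 (SE 0.22). None was called.

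Genes induced within minutes to hours of stimulation leaned upward without a call. Among 22 immediate early genes 17 lay above 0, beside 47.2% of all genes below it, and the median was 0.23. At an unadjusted p under 0.05, 7 were higher, beside 1.1% of all genes. Dusp1, a phosphatase that switches off MAP kinases, read 10.10 and 9.11 with SB00526221, 8.89 and 8.59 with SB00526222, and 9.23 with SB00526226. The J2 vehicle array read 8.35 and the other vehicle arrays reached 10.43, and the difference was 1.00 (SE 0.35). Btg2, an antiproliferative gene, differed by 0.47 (SE 0.12), Cd69, an activation marker that retains T cells in lymphoid tissue, by 0.53 (SE 0.19), and Zfp36, which destabilises cytokine messages, by 0.45 (SE 0.16). Without an experiment term the differences of Dusp1 and Btg2 turned to -0.0219 and -0.000157. The histone gene H1f2 read 8.15 to 8.81 at 4 h, above 7.57 in the J2 vehicle array, with a difference of 0.70 (SE 0.19, adjusted p = 0.563). Rgs2, a brake on G protein signalling, differed by 0.75 (SE 0.21).

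Genes of quiescence and FOXO control, many of them held on when growth signals are low, lay above 0 in 16 of 17 and below it in 1, beside 47.2% of all genes below 0. Their median was 0.15, and 3 were higher at an unadjusted p under 0.05, beside 1.1% of all genes. Tob1 differed by 0.35 (SE 0.11) and Cdkn1b, a cell cycle inhibitor, by 0.19 (SE 0.10). Glucocorticoid-induced genes had 3 of 12 higher at an unadjusted p under 0.05, beside 1.1% of all genes (median 0.15). The 3 were Cxcr4, Dusp1 and Nfkbia. These lists share genes: Dusp1 was counted among the immediate early genes too, and Btg2 among both those and the quiescence genes. Tsc22d3, the gene of the glucocorticoid-induced protein GILZ, differed by 0.26 (SE 0.18) and Nfkbia, an NF-kB inhibitor, by 0.27 (SE 0.11), which turned to -0.115 without an experiment term. T cell receptor signalling genes lay above 0 in 15 of 15, beside 47.2% of all genes below 0 (median 0.12, none at an unadjusted p under 0.05), with the adaptor gene Lat at 0.25 (SE 0.13). Cd28, a costimulatory receptor of the marker list, differed by 0.23 (SE 0.14).

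On the other side, Slc7a5, which encodes the large neutral amino acid transporter that T cells raise on activation, read 9.46 and 8.98 with SB00526221, 9.36 and 9.39 with SB00526222, and 9.26 with SB00526226. The J2 vehicle array read 9.69. The difference fitted over all experiments was -0.76 (SE 0.26, unadjusted p = 0.00703), larger than the gap of any 4 h value to that array. The arginine transporter gene Slc7a1 differed by -0.38 (SE 0.19). Cholesterol synthesis genes lay below 0 in 15 of 15, beside 47.2% of all genes, with a median of -0.16. At an unadjusted p under 0.05, 3 were lower, beside 0.856% of all genes: Sqle (-0.49, SE 0.20), Fdps (-0.45, SE 0.16) and Msmo1 (-0.41, SE 0.17), all enzymes of the sterol pathway. Idi1, another of its enzymes, differed by -0.54 (SE 0.30), which turned to 0.00175 without an experiment term. Ribosome biogenesis genes had a median of -0.14, with 19 of 21 below 0, beside the same 47.2%, and Gar1, a snoRNP protein, at -0.25 (SE 0.13). Mitosis genes (-0.09) and DNA replication genes (-0.06) had no member at an unadjusted p under 0.05. The proapoptotic gene Bad differed by -0.32 (SE 0.13) and the helper cytokine gene Il4 by -0.34 (SE 0.15). Of the 13 clock genes none had an unadjusted p under 0.05.

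Compound by compound, SB00526221 (2 arrays) had 15 genes called higher and 1 lower against vehicle, or 0.143% of the genes tested. At an unadjusted p under 0.05, 364 genes (3.25%) were higher and 393 (3.51%) lower. SB00526222 (2 arrays) had 0, with 118 (1.05%) higher and 93 (0.829%) lower at an unadjusted p under 0.05. SB00526226 (1 array, assumed to vary like the other groups) had 0, with 85 (0.758%) higher and 84 (0.749%) lower at an unadjusted p under 0.05. The totals of 211 with SB00526222 and 169 with SB00526226 were shares below the 0.05 that would pass on average with no difference. A random experiment term also called 0 in both. Lbp, which encodes a lipopolysaccharide-binding protein, read 9.22 and 9.46 with SB00526221, 7.72 and 7.62 with SB00526222, and 7.51 with SB00526226. Vehicle arrays ran from 7.34 through 7.59 to 7.79. The SB00526221 arrays stood apart from all others, and the difference from vehicle was 1.58 (SE 0.16, 3.00-fold, adjusted p = 1.28e-06).

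Cxcr4, the chemokine receptor that holds lymphocytes in marrow and germinal centres, read 10.82 and 10.47 with SB00526221, 8.77 and 9.89 with SB00526222, and 9.03 with SB00526226, against vehicle arrays from 8.687 through 9.59 to 10.36. It rose by 1.73 with SB00526221 (SE 0.26, adjusted p = 0.00185). Hsph1, a heat shock chaperone of the HSP110 family, read 9.53 and 9.49 with SB00526221, 7.63 and 7.95 with SB00526222, and 7.83 with SB00526226, against vehicle arrays from 7.53 through 7.94 to 8.58. It rose by 1.42 with SB00526221 (SE 0.26, adjusted p = 0.0182). Mir142 (2.72, SE 0.42), Mir30e (1.60, SE 0.33) and Mir342 (1.57, SE 0.29) rose as well. So did Lman2l, a lectin of the early secretory pathway (1.25, SE 0.25), Rgs2 (1.25, SE 0.25), Rnf32 (1.13, SE 0.21), Wdr78 (0.90, SE 0.17), the lipid droplet coat gene Plin2 (0.88, SE 0.17), Tmie (0.83, SE 0.16), Tgfb1i1 (0.79, SE 0.17), Dnase1l2 (0.78, SE 0.16) and the carbonic anhydrase gene Car15 (0.68, SE 0.14). Rtp4 fell by 1.14 on the log2 scale with SB00526221 (SE 0.23, adjusted p = 0.0293), and Rsad2, at -1.15 (SE 0.25), had an adjusted p of 0.0588. The count of 16 fell to 3 without SB00526221 replicate 2 and to 4 without the J2 vehicle array.

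SB00526221 replicate 2 had the highest macrophage marker mean of the 4 h arrays, 7.24 beside 6.11 in replicate 1. Adgre1, a surface antigen gene of macrophages, read 8.37 there against 5.38 to 6.27 in the other 4 h arrays, and C1qb, a complement gene, read 10.10 against 6.82 to 7.80. Cd68, a lysosomal macrophage gene, read 7.80 and 8.6902 in the 2 SB00526221 arrays, 7.18 and 7.29 with SB00526222, and 7.49 with SB00526226. The spleen macrophages of the series averaged 11.46 at 4 h and 11.31 with vehicle for Lbp, 7.56 and 7.76 for Hsph1, and 7.38 and 7.10 for Cxcr4. The part of macrophage transcripts in the SB00526221 differences was not tested.

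Heat shock chaperones had values above vehicle with the same compound. With SB00526221, 15 of 15 members lay above vehicle with a median of 0.54, while 5137 of all 11212 genes lay below it. At an unadjusted p under 0.05, 9 of 15 were higher, beside 3.25% of all genes. The median was -0.07 with SB00526222 and -0.01 with SB00526226. Hsp90aa1, the inducible HSP90, read 11.03 and 11.03 with SB00526221, 10.40 and 10.05 with SB00526222, and 10.43 with SB00526226, with 10.21 in the J2 vehicle array. Its difference from vehicle with SB00526221 was 0.90 (SE 0.26). Dnaja1 (0.72, SE 0.16), Dnajb1 (0.68, SE 0.21) and Hspa8 (0.53, SE 0.12), chaperones of the HSP40 and HSP70 families, were not called, and Hsph1 was the only called member. Of the 13 chaperone genes with a RefSeq window, 8 (61.5%) held the heat shock element letters GAANNTTC, which equal their own reverse complement, against 6.84% of the 8996 tested genes with a window.

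**Figure D4:**
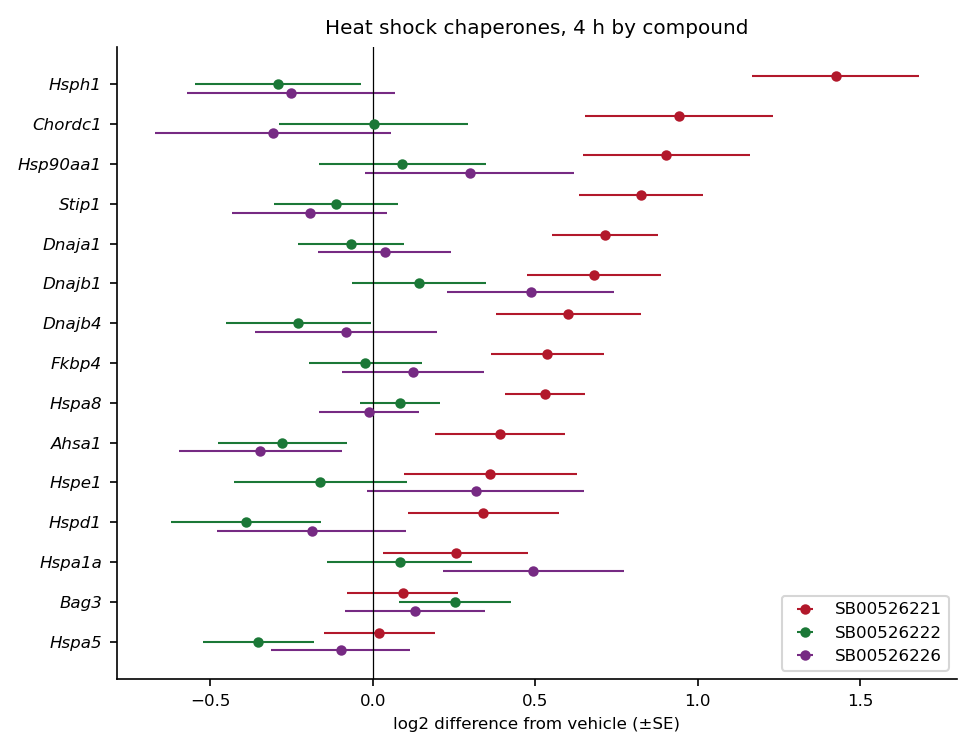
Log2 difference from vehicle, with SE, of the 15 tested heat shock chaperone genes at 4 h, by compound. All SB00526221 points lie above 0 (median 0.54), led by Hsph1 at 1.42, while SB00526222 and SB00526226 scatter about 0.

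The 3 compounds were compared in 3 pairs at the same hour and number of treatments, with p-values adjusted over all genes and pairs together. With no difference, a share of 0.05 of the 11212 genes would on average have an unadjusted p under 0.05. Doses are not in the labels and may differ. SB00526222 and SB00526221 differed in 3 genes (0.0268%). Lbp was lower with SB00526222 than with SB00526221 by 1.67 (difference -1.67, SE 0.17, adjusted p = 5.32e-06), and Hsph1 likewise (-1.72, SE 0.27, adjusted p = 0.00876). Ctse, the gene of the protease cathepsin E, was higher with SB00526222, at 10.56 and 10.51 against 8.80 and 9.19 with SB00526221 (1.54, SE 0.25, adjusted p = 0.00876). The vehicle arrays of Ctse ran from 9.68 through 10.06 to 10.40, between the 2 compounds. SB00526226 and SB00526221 differed in Lbp alone (-1.84, SE 0.21, adjusted p = 2.58e-05, 0.00892% of genes), with Hsph1 at -1.68 (SE 0.34, adjusted p = 0.105). SB00526226 and SB00526222 differed in 0 genes by limma, with 277 at an unadjusted p under 0.05 and 0 under a random experiment term. The 95% interval of that difference was -0.59 to 0.26 for Lbp, -0.65 to 0.73 for Hsph1 and -1.01 to 1.23 for Mir142. For Cxcr4, SB00526222 differed from SB00526221 by -1.32 (SE 0.28), with an adjusted p of 0.157.

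The 4 h arrays were next set against prolonged treatment with the same 3 compounds (14 arrays, 14 or 15 treatments, 14 to 18 h after the last). This comparison shares the 4 h arrays with the one against vehicle. Prolonged SB00526226 came from J8 only (3 arrays), so its part, set against the J2 array at 4 h, rested on the experiment term. 4 genes were called higher at 4 h and 0 lower (0.0357%): Mir142 by 2.39 (SE 0.30, adjusted p = 0.000124), Mir30e by 1.21 (SE 0.23, adjusted p = 0.0472), Mir342 by 1.14 (SE 0.20, adjusted p = 0.0353) and Car15 by 0.53 (SE 0.10, adjusted p = 0.0353). Bcl2 (-0.66, SE 0.14), Cxcr4 (0.88, SE 0.18) and H1f2 (0.81, SE 0.16) had adjusted p-values of 0.0795, 0.0795 and 0.0785. Without an experiment term the difference for Bcl2 turned to 0.0183. Interferon-stimulated genes had a median of -0.14, with 26 of 30 below 0, beside 5163 of all 11212 genes. At an unadjusted p under 0.05, 5 of them were lower, beside 0.874% of all genes. The count of 4 became 2 in J2 alone and 1 under quantile normalization. It became 1 without either SB00526221 array at 4 h, and 1 without any single one of 5 prolonged arrays: both SB00526221 and the SB00526222 one in J2, the SB00526222 one in J25, and SB00526226 replicate 3. It became 2 without the prolonged SB00526222 array of J3 or the SB00526221 array of J6, and 7 without the SB00526226 array at 4 h. With the experiment as a random term 0 genes were called, and with no experiment term 332 were higher and 267 lower.

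The 4 h difference in CD4 T cells was tested against that in other spleen cells, with the mouse (the title number) as a block where cell types shared one. Some arrays of the other cells came from mice with no CD4 T cell array. Each effect weighted the compounds by that cell type's own 4 h arrays, and the share of each compound differed between cell types. The part of these shares in the differences was not tested. Against NK cells (5 arrays at 4 h) no gene of 10601 differed by limma. At an unadjusted p under 0.05 were 442 of the 10601, a share below the 0.05 that would pass on average with no difference. The difference was closest to the threshold for S1pr5, a sphingosine receptor of NK cells, at -1.63 (SE 0.33, adjusted p = 0.138). For Socs2 the effect was -0.42 in CD4 T cells and -1.43 in NK cells, a difference of 1.01 (SE 0.30) that turned to -0.183 without an experiment term. For Bcl2 it was -0.58 in CD4 T cells and -1.41 in NK cells, a difference of 0.83 (SE 0.29). Neither was called. Mir142 read 8.02 to 9.69 in NK cells at 4 h against a mean of 6.07 in the 2 J2 vehicle arrays of NK cells. Its effect was 2.32 in CD4 T cells and 2.60 in NK cells, a difference of -0.28 (SE 0.58).

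Against spleen macrophages (4 arrays at 4 h) 2 of 10224 genes (0.0196%) differed, both of them clock genes that encode the repressors REV-ERB alpha and beta. Nr1d1 read 7.35, 7.73, 7.96, 7.79 and 7.62 in the CD4 T cells at 4 h, against vehicle arrays from 7.70 through 8.01 to 9.20. In macrophages it averaged 10.06 at 4 h and 7.93 with vehicle. Its effect was -0.17 in CD4 T cells and 2.291 in macrophages (difference -2.46, SE 0.42, adjusted p = 0.00336). The effect for Nr1d2 was -0.08 in CD4 T cells and 1.36 in macrophages (difference -1.43, SE 0.26, adjusted p = 0.00862). The small CD4 T cell effects of both turned above 0 in some alternatives. The effect for Mir142 was 2.33 in CD4 T cells and 0.95 in macrophages, a difference of 1.37 (SE 0.59) that was not called. The hour of harvest differs between the 4 h and vehicle arrays in both cell types. Within J2 alone 0 genes differed.

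One pair of CD4 T cell arrays in J25 matched the hour: SB00513404 and vehicle, each 3 h after 1 treatment, with 1 array per group, given as values on which no test was made. The inhibitor and the schedule differ from those of the 4 h arrays. All 30 interferon-stimulated genes were lower with SB00513404 than with vehicle, beside 38.5% of all genes, with a median difference of -0.47 beside 0.05. Ifit1 read 7.69 with SB00513404 and 9.45 with vehicle, Rtp4 7.79 and 9.03, Oasl2 7.59 and 8.43, and Rsad2 5.96 and 6.80. The STAT5 target Cish read 7.13 with SB00513404 and 8.55 with vehicle, Socs2 6.19 and 7.22, and Bcl2 10.61 and 11.51. STAT5 targets lay below 0 in 16 of 18, with a median of -0.23.

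Mir142 did not follow in that pair, at 8.32 with SB00513404 and 8.04 with vehicle. The vehicle array at 3 h lay 1.20 under the mean of the 2 J25 vehicle arrays at 18 h for Mir142 (difference -1.20), while the difference for Bcl2 was 0.07. Mir30e read 6.87 with SB00513404 and 6.66 with vehicle, and Mir342 8.55 and 8.671. Over the interferon-stimulated list, the median fitted difference of the 3 h vehicle array from the plain vehicle group of all experiments was 0.01.

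**Figure D5:**
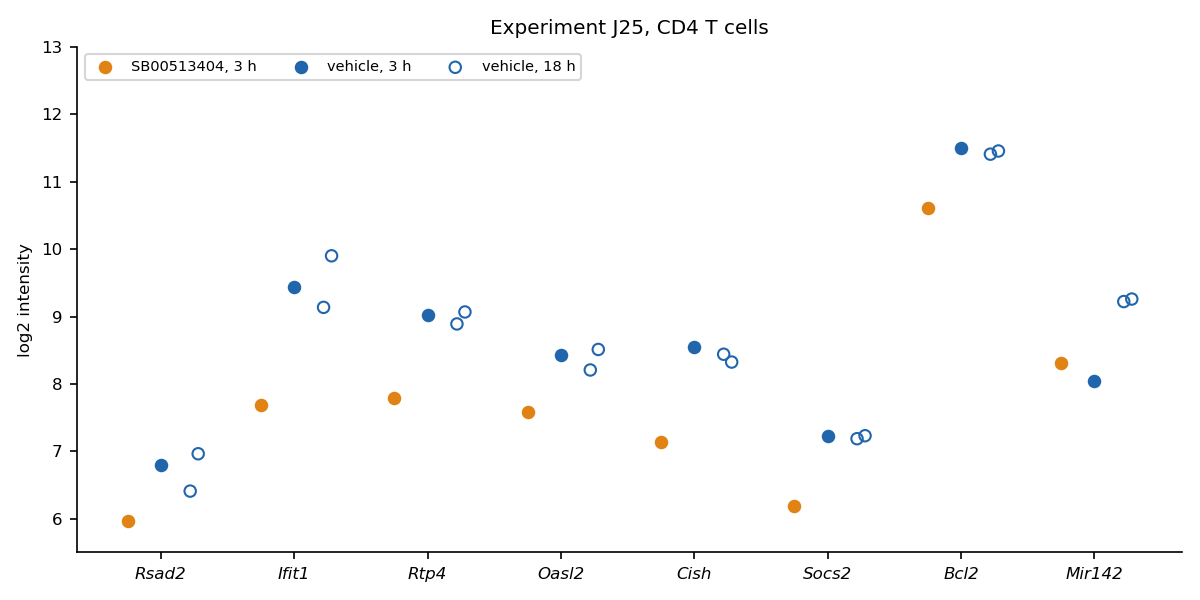
Log2 intensity of 8 genes in CD4 T cell arrays of J25, with SB00513404 at 3 h (orange), vehicle at 3 h (filled blue) and the 2 vehicle arrays at 18 h (open blue). Rsad2, Ifit1, Rtp4, Oasl2, Cish, Socs2 and Bcl2 read lower with SB00513404 than in the vehicle arrays. Mir142, at 8.32, read above the 3 h vehicle array at 8.04 and below the 2 vehicle arrays at 18 h.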

How the data were processed

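The authors deposited a linear intensity for each probe set. The submitters' processing notes name RMA and Affymetrix Power Tools; neither tool has a version in the sources used here, and which arrays were processed as 1 set was not given. The table of the series holds 24922 probe sets, and 0 columns had no sample. Of the probe sets, 21425 have 1 gene symbol, 1399 have several and 2098 have none in the platform annotation; only the first kind was used, and 21347 of them matched RefSeq. Where a gene had several probe sets, that of highest mean log2 intensity was taken, giving 19752 genes. The number of arrays limits the precision.

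Values were put on the log2 scale here with no further scaling. Genes above the array median in at least 3 CD4 T cell arrays were kept. All 39 CD4 T cell arrays (14 groups, 5 experiments) were fitted with limma 3.58.1 in R 4.3.3, with group and experiment as terms, and p-values were adjusted by Benjamini-Hochberg over all genes, at a threshold of 0.05. The 4 h groups were weighted by their arrays. The fit had 21 residual degrees of freedom. It was tested on simulated data. No 2 CD4 T cell arrays held identical values. The highest correlation between 2 of them was 0.9967.

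Named genes are the 12 largest rises and falls past the threshold, up to 4 members of each list by the moderated statistic, and the JAK, SOCS and STAT5 genes given; for other comparisons, the 6 largest each way. Irf7, the SB00526221 calls beyond 6, and Rgs2 were picked with their values in view. The compared arrays, gene lists and tests were chosen with earlier results of these data known. Alternatives changed the experiment term, arrays, vehicle, filter, normalization, weights, probe sets and variance model, and left out each array in turn. An SB00526228 array of J2 with granulocyte transcripts stayed in the fit and was left out in 1 alternative.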

Additional observations from a re-analysis of the deposited data

Results flagged for a closer look

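Of 142 combinations of a gene and a group examined for an array far from the others, 6 stood out; about 1 in 20 would by chance. In the 4 h arrays these were Gar1 in SB00526226 (8.08), Jak1 in SB00526222 replicate 2 (12.04, low) and Tyk2 in SB00526221 replicate 1 (9.37, high). In the vehicle arrays they were the J2 array for Dnajb1 (8.22, low) and 1 J8 array for both Bad (8.10, high) and Il7r (11.12, low).

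Compounds differed at 4 h in single genes by a test of the difference. For SB00526222 minus SB00526221 these were Lbp (-1.67), Hsph1 (-1.72) and Ctse (1.54), and for SB00526226 minus SB00526221 Lbp (-1.84). The 4 h effect in CD4 T cells differed from that in spleen macrophages for Nr1d1 (-2.46) and Nr1d2 (-1.43).

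The J2 array of prolonged SB00526228, which enters none of the comparisons, carried granulocyte transcripts. S100a8 read 9.32 there, against 5.02 to 5.70 in vehicle arrays, and Ly6g read 10.16, against 5.51 to 6.23. Its Mir142 value was 8.21. The count of genes called at 4 h was 1 with this array and 1 without it.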

How the results depend on the processing

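The 4 h call of 1 gene stayed at 1 under a J2-only fit, vehicle at 14 or 15 h, no filter or a stricter one, quantile normalization, every probe set, and a trended robust variance. It was 0 with experiment as a random block, 0 with only the compared arrays, 3 without an experiment term, 3 with plain and pH 3 vehicle pooled, 3 without the SB00526226 array and 19 (17 higher, 2 lower) with array weights. Added after seeing the data, J2 alone with vehicles pooled gave 2 and J2 with J25 gave 4. Leaving out 1 array gave 0 to 3; the 0 came without the J2 vehicle array, the 3 without SB00526222 replicate 1 or the SB00526226 array, and 2 without 1 J25 vehicle array. For SB00526221 the count of 16 became 3 in J2 alone, and 3 to 23 without 1 array (3 without SB00526221 replicate 2, 4 without the J2 vehicle array). For SB00526222 it was 0 to 2 (1 without SB00526222 replicate 1, 2 without 1 J8 vehicle array) and for SB00526226 it stayed 0. The 4 genes above prolonged treatment became 599 with no experiment term, 0 with a random block, 2 in J2 alone, 1 under quantile normalization, and 1 to 7 without 1 array (7 without the SB00526226 array at 4 h). The 3 genes between SB00526222 and SB00526221 became 1 with no experiment term and 1 to 3 without 1 array (1 without SB00526222 replicate 1); SB00526226 against SB00526221 stayed at 1. The 2 genes against macrophages became 0 in J2 alone. The cause was not tested.

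The sign of some differences turned, large ones included. Without an experiment term these were Socs1 (-0.55), Tyk2 (-0.21), Btg2 (-0.000157), Dusp1 (-0.0219), Nfkbia (-0.12), Dnajb1 (-0.0163), Idi1 (0.00175), C1qb (-0.35), Nr1d2 (0.15), Bcl2 against prolonged treatment (0.0183) and Socs2 against NK cells (-0.18). With only the compared arrays, and equally in J2 alone, they were Myc (0.17), Socs3 (0.0388), Jak1 (-0.0552) and Jak2 (-0.0786). J2 with J25 turned Myc (0.0286), Jak1 (-0.101) and Jak2 (-0.0693); array weights turned Myc (0.0501), Jak1 (-0.00293) and Nr1d1 (0.0128); vehicle at 14 or 15 h turned Pim1 (0.05001) and Jak2 (-0.0156). A random block turned Socs1 (-0.13) and Nr1d2 (0.00144); pooled vehicles turned Socs1 (-0.0518) and Nr1d2 (0.00868), and in J2 alone Socs1 (-0.0159), Jak1 (-0.0190) and Nr1d1 (0.0665). Leaving out 1 array gave -0.112 to 0.153 for Socs1, -0.0124 to 0.288 for Jak2, -0.156 to 0.00178 for Nr1d2, -0.0248 to 0.722 for Adgre1 and -0.0643 to 0.755 for C1qb, the last 2 turning without SB00526221 replicate 2. The interferon-stimulated median stayed between -0.38 and -0.23. No paired analysis was possible because the replicate numbers are in accession order and pair no samples. With 1 plain vehicle array in J2, the number of arrays limits every comparison.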
